A study of Mus musculus with 4 samples.

Results

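The SOCS feedback inhibitors and the PIM kinases were followed in the colon epithelium of mice with and without a villin-driven Cre recombinase that acts on floxed Stat3. The 10 genes were Socs1 to Socs7, Cish, Pim1 and Pim3, taken by name, and they were read from every probe set (a group of array probes for 1 transcript) whose annotation names exactly 1 gene and that gene is one of them. This gave 29 probe sets. The array annotation gave 18193 genes in all a probe set of their own. Each of the 4 mice had 1 array. The Cre-positive group (labelled Stat3floxflox VillinCre+, n = 2 mice) carried floxed Stat3 alleles and a Cre that the villin promoter switches on in epithelial cells of the gut. The Cre-negative group (labelled Stat3floxflox VillinCre-, n = 2 mice) carried the same floxed alleles without Cre. All 4 mice drank 2.5% dextran sodium sulphate (DSS), which injures the colon epithelium, for 5 days, so no group was untreated. No age of the mice and no array model is stated in the labels.

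SOCS proteins are the classical brake on cytokine signalling. A cytokine receptor activates JAK kinases, these phosphorylate STAT transcription factors, and the STATs switch on SOCS genes, whose products then bind the receptor or the JAK through an SH2 domain and direct bound proteins to degradation through a SOCS box. SOCS3 binds the shared receptor chain gp130 and is a well known target of STAT3, CISH and SOCS2 are typical targets of STAT5, and SOCS1 restrains interferon signalling. PIM kinases are serine/threonine kinases that need no activation step beyond their own synthesis, so that their level follows transcription, which STAT factors drive, and they favour survival and growth of the cell.

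Values are GC-RMA intensities on the log2 scale, and differences are Cre-positive minus Cre-negative. Brightness depends on the probes, so levels were compared between arrays for 1 probe set and not between genes. Epithelial markers were bright in all arrays, for example Epcam at log2 14.94 and 14.76 in Cre-positive arrays 1 and 2, against 14.67 and 14.69 in Cre-negative arrays 1 and 2. Of the endothelial markers, 7 of 8 lay at or below the filter on dim probe sets. Stat3 itself measured 9.28 and 8.16 in the Cre-positive arrays, against 10.46 and 10.50 in the Cre-negative arrays, by its brightest probe set. Its other probe sets were not alike: 1460700_at measured 8.37 and 8.24 against 9.72 and 10.05, while 1459961_a_at was higher in the Cre-positive arrays at 6.82 and 6.11 against 5.60 and 4.75. Which of them lies in the floxed part is not known from the labels. Correlations between arrays over the genes tested ran from 0.981 to 0.994, with Cre-positive array 1 in each of the lowest 3.

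Of the 10 genes, 9 were tested by their brightest probe set and Socs1 was not, because it lay below the filter. No gene of the 9 passed the threshold of 0.05 after adjustment over all 12659 genes tested (smallest limma adjusted p = 0.322, for Socs3), and limma called 0% of all genes in either direction. At an unadjusted p under 0.05, 1 of the 9 was lower, Socs3, against 8.51% of all genes, and 0 of the 9 were higher, against 2.54%. The Cre-positive arrays lay wholly below the Cre-negative arrays in 2 of the 9, Socs3 and Socs5, against 34.7% of all genes. They lay wholly above in 1, Pim1, against 13.5% of all genes. In the other 6 genes the groups overlapped. By their means 5 of the 9 were lower and 4 higher, against 61.5% and 38.5% of all genes. The median difference of the 9 genes was -0.13, beside -0.053 over all genes tested. These shares are near the background, so the genes are described one by one. The background includes dim genes down to the filter at log2 2.81. Cish, the dimmest of the 9, averaged 6.33 in the Cre-positive and 6.30 in the Cre-negative group. The background also moved with the filter. At an unadjusted p under 0.05, 1077 genes were lower here, and 259 of a smaller number tested with the filter at the 60th percentile. Higher genes numbered 322 here and 282 with that filter. No background share was taken for genes as bright as the 9.

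**Figure D1:**
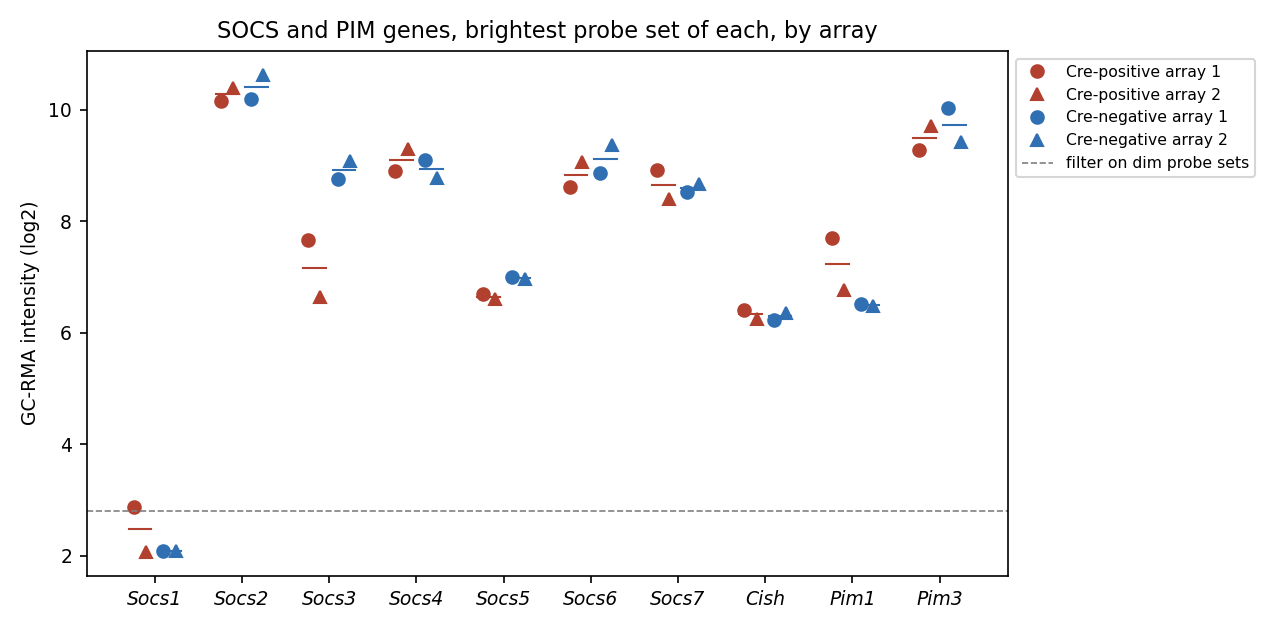
GC-RMA intensity (log2, vertical axis) of the brightest probe set of each of the 10 genes in Cre-positive arrays 1 and 2 (red) and Cre-negative arrays 1 and 2 (blue), with short lines at the group means (n = 2 each). Socs3 has the widest gap between the nearest arrays of both groups (7.67 and 6.65 against 8.77 and 9.08), and Socs1 lies near or under the dashed line of the filter in every array.

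Socs3, the feedback inhibitor of gp130 receptors, had the lowest difference of the 9 genes. Its brightest probe set (1455899_x_at) measured 7.67 and 6.65 in Cre-positive arrays 1 and 2, against 8.77 and 9.08 in Cre-negative arrays 1 and 2. Both Cre-positive arrays lay below both Cre-negative arrays, and Cre-positive array 2 lay lowest. The means were 7.16 ± 0.72 in the Cre-positive group and 8.93 ± 0.22 in the Cre-negative group (SD, n = 2 each). The difference was -1.77 (SE 0.42, 95% confidence interval -2.99 to -0.55), a 3.41-fold lower intensity, and ranked 13th from the lowest end of the 12659 genes. It missed the threshold (limma adjusted p = 0.322). In bulk epithelium, fewer cells that express a gene and less RNA per cell cannot be told apart.

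The remaining Socs3 probe sets had the same order of groups. Probe set 1456212_x_at measured 7.26 and 6.80 in the Cre-positive arrays, against 8.21 and 8.37 in the Cre-negative arrays, a difference of -1.26 (SE 0.22, limma adjusted p = 0.276 over 26999 probe sets). Probe set 1416576_at was dimmer, at 2.93 and 2.79 in the Cre-positive arrays, against 4.92 and 5.64 in the Cre-negative arrays. Its Cre-positive values lie at the filter (log2 2.81), near the bottom of the scale, so no fold is given for it. The x in the identifiers of the first pair means that some of their probes can bind other transcripts, related or not. The dim probe set is not of that kind. All 3 probe sets had both Cre-positive arrays below both Cre-negative arrays, and in the 2 bright ones Cre-positive array 2 was the lowest array.

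The promoter of Socs3 is shown because its difference was the lowest of the 9 genes, together with those of Cish, whose groups overlapped, and Pim1, which stood higher. Each line is the stretch of 250 bases before the transcript start, 5′ to 3′ on the gene's strand, from RefSeq (GRCm38.p6). Capitals mark matches to TTCNNNGAA, the letters of the usual STAT binding motif, which read the same on both strands. The windows are chr11:117969367-117969616 (minus strand) for Socs3, chr9:107296409-107296658 (plus strand) for Cish and chr17:29490535-29490784 (plus strand) for Pim1.
Socs3: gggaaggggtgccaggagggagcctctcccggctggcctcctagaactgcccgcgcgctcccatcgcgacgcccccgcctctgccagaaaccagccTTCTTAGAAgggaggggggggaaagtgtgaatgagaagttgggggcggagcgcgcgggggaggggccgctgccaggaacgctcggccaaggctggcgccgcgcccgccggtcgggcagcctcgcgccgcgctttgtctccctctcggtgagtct
Cish: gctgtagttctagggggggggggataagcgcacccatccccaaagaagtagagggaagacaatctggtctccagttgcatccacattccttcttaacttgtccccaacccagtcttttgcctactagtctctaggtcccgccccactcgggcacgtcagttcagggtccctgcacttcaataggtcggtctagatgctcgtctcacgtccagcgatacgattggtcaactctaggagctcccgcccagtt
Pim1: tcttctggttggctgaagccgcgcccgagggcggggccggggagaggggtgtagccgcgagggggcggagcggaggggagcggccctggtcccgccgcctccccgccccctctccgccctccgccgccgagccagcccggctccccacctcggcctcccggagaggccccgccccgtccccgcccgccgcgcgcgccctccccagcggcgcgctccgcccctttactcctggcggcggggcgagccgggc
Socs3 holds 1 match, TTCTTAGAA, from 154 to 146 bases before the start. A second Pim1 start, further into the gene, and the windows of Cish, Socs1, Socs4 and Pim3 hold 0 matches in the same length. The table has windows for 6 of the 10 genes. Of all 32851 windows in it, 7.02% hold the motif in these 250 bases, and 5.85% hold the form with a wider spacer, TTCNNNNGAA, of which the windows of these 6 genes hold 0. A match is a run of letters and was not tested as a binding site.

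Among the 12659 genes tested, the gene whose profile over the 4 arrays lay nearest to that of Socs3 was Stat3, the targeted gene. Likeness was the Euclidean distance between log2 profiles, each centred on its own mean, and it was 0.206 for Stat3. The next nearest were Wfdc18, a gene of the whey acidic protein family, at 0.430, Ptk6, a non-receptor tyrosine kinase of epithelial cells, at 0.440, the sugar transporter gene Slc5a9 at 0.608 and the DNA polymerase gene Polh at 0.651. Relative to the mean of the Cre-negative arrays, Socs3 stood at -1.26 in Cre-positive array 1 and -2.28 in array 2, and Stat3 at -1.20 and -2.31. Of the Cre-positive mice, the one with less Stat3 signal by this probe set also had less Socs3 signal. By the other probe sets above the filter the Cre-positive arrays lay closer together. They measured 8.37 and 8.24 by 1460700_at and 6.82 and 6.11 by 1459961_a_at of Stat3. For Socs3 they measured 7.26 and 6.80 by 1456212_x_at and 2.93 and 2.79 by 1416576_at. Only the brightest probe set of each gene enters the distance, and with 4 arrays the measure describes these mice alone. Other STAT3 target genes went either way between the Cre-positive mice. Reg3b was lower in array 1 (11.07 and 12.03 in Cre-positive arrays 1 and 2) and Bcl3 was lower in array 2 (9.39 and 8.89).

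**Figure D2:**
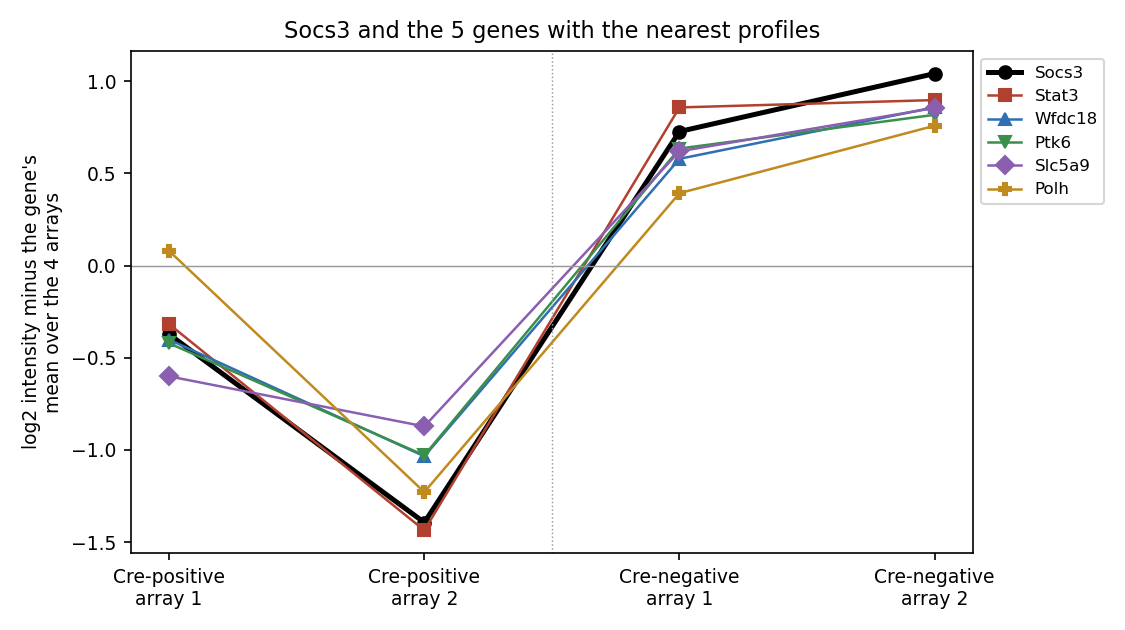
Log2 intensity minus each gene's mean over the 4 arrays (vertical axis), by array, for Socs3 (black) and the 5 genes nearest to it among 12659. Socs3 and Stat3 run closest together (distance 0.206), with Cre-positive array 2 lowest and the Cre-negative arrays highest.

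Socs1, Socs2 and Cish are the other members that cytokines induce most directly, and none of them showed groups that stood apart in bright probe sets. Socs1, which blocks JAK kinases after interferon, has 1 probe set, at 2.88 and 2.07 in the Cre-positive arrays, against 2.09 and 2.09 in the Cre-negative arrays. Cre-positive array 1 stood above the others, just over the filter, so no size is given and no test was made. Cish, an inhibitor of STAT5 signalling, measured 6.42 and 6.25 in the Cre-positive arrays, against 6.24 and 6.35 in the Cre-negative arrays. The groups overlapped, and the difference of 0.037 had a 95% confidence interval of -0.43 to 0.50 (limma adjusted p = 0.931).

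Socs2, the regulator of growth hormone signalling, measured 10.16 and 10.40 in the Cre-positive arrays, against 10.19 and 10.63 in the Cre-negative arrays, by its brightest probe set. The difference was -0.13 (95% confidence interval -0.73 to 0.46, limma adjusted p = 0.781), with overlapping groups. A further bright probe set (1418507_s_at) measured 9.37 and 9.89 against 9.50 and 9.94. In both, array 2 was above array 1 within each group, and that gap was larger than the gap between the groups. The dim probe set 1438470_at was higher in both Cre-positive arrays, at 4.95 and 4.79 against 4.75 and 4.60. The other 3 Socs2 probe sets lay between log2 2.55 and 3.14 in every array, close to the filter or below it.

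Socs4 to Socs7 are the less studied members, and SOCS4 and SOCS5 are known to act on the EGF receptor. Socs5 measured 6.69 and 6.61 in the Cre-positive arrays, against 7.01 and 6.97 in the Cre-negative arrays, by 1423349_at. Its other probe set measured 6.59 and 6.74 against 6.95 and 6.86. Both probe sets had all Cre-positive values below all Cre-negative values, by a small step. The differences were -0.33 (95% confidence interval -0.77 to 0.10, limma adjusted p = 0.517) and -0.24, a 1.26-fold lower intensity by the first. Of all genes tested, dim ones included, 34.7% were likewise separate and lower.

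Socs6, which binds the insulin receptor pathway and KIT, measured 8.62 and 9.06 in the Cre-positive arrays, against 8.87 and 9.37 in the Cre-negative arrays. The groups overlapped (difference -0.28, 95% confidence interval -1.07 to 0.50, limma adjusted p = 0.666). All 3 Socs6 probe sets had a lower mean in the Cre-positive group, by -0.28, -0.083 and -0.13, and in all 3 array 2 was above array 1 within each group. Socs4 measured 8.90 and 9.30 in the Cre-positive arrays, against 9.11 and 8.78 in the Cre-negative arrays, by its bright probe set. Its groups overlapped, with a difference of 0.15 (95% confidence interval -0.48 to 0.79, limma adjusted p = 0.764). A dimmer Socs4 probe set (1421275_s_at) spread more within the groups, at 5.22 and 4.30 against 5.71 and 4.32, than between them. Socs7, which has been tied to insulin signalling, measured 8.92 and 8.40 in the Cre-positive arrays, against 8.53 and 8.68 in the Cre-negative arrays (difference 0.055, 95% confidence interval -0.62 to 0.73, limma adjusted p = 0.928). Its second probe set above the filter differed by 0.22, with overlapping groups.

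Pim1, a kinase gene that STAT factors are known to induce, stood higher in both Cre-positive arrays. It measured 7.71 and 6.77 in the Cre-positive arrays, against 6.51 and 6.49 in the Cre-negative arrays. The Cre-negative arrays were nearly equal, Cre-positive array 2 lay a little above them, and Cre-positive array 1 lay far above. The difference was 0.74 (SE 0.38, 95% confidence interval -0.37 to 1.85, limma adjusted p = 0.537), a 1.67-fold higher intensity. Without Cre-positive array 1 it was 0.27, and without Cre-positive array 2 it was 1.21. The second Pim1 probe set lay below the filter on average (2.82 and 2.71 against 2.78 and 2.77) and gave no size.

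Markers of other cell types differed between the arrays too. S100a8, a neutrophil marker that injured epithelium can also make, measured 9.70 and 5.06 in Cre-positive arrays 1 and 2, against 5.91 and 4.79 in the Cre-negative arrays, and S100a9 followed it at 9.46 and 4.60 against 5.44 and 4.54. Csf3r, the remaining neutrophil marker above the filter, measured 3.49 and 3.38 against 3.40 and 3.40, and 5 of the 8 neutrophil markers on the array were at or below the filter (Cxcr2, Mpo, Elane, Ngp and Camp). Their summed intensity was 1573 and 91.7 in the Cre-positive arrays, against 138 and 85.6 in the Cre-negative arrays.

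For 12 macrophage markers the sums were 2024 and 1492 in the Cre-positive arrays, against 1913 and 1886 in the Cre-negative arrays, with Cd68, C1qc, Fcgr1 and Itgam at or below the filter. Cd14 was the brightest of them and was lower in both Cre-positive arrays (10.48 and 10.05 against 10.64 and 10.60). By contrast, C1qa (5.33 and 6.30 against 4.79 and 5.10) and C1qb (6.61 and 6.65 against 6.21 and 6.09) were higher in both. Lyz2 was too, by 0.85 on average. Cx3cr1, a dim marker near the filter (3.18 and 3.10 against 3.20 and 3.28), was lower in both (difference -0.099). The groups overlapped for Adgre1 (-0.016), Csf1r (-0.012) and Mrc1 (5.01 and 3.47 against 3.50 and 3.08). For 12 T and NK cell markers the sums were 1401 and 1712 against 1448 and 1329, with Zap70 and Ncr1 at or below the filter. Among them Klrd1, a receptor chain of NK cells, was higher in both Cre-positive arrays (6.98 and 7.56 against 6.35 and 6.56). So was Cd3e (difference 0.42). The dim markers Cd4 (difference -0.13) and Cd247 (-0.0396) were lower in both. The groups overlapped for Cd3d, Cd3g, Cd8a, Cd8b1, Gzma and Gzmb. The sums of 7 B and plasma cell markers were 429 and 195 against 193 and 151, with Cd79a, Cd79b, Mzb1 and Pax5 at or below the filter. These sums rested mostly on the immunoglobulin gene Igha (8.59 and 7.32 against 7.28 and 6.83). Ms4a1, also dim, was lower in both Cre-positive arrays (3.39 and 3.28 against 3.54 and 3.46). For Jchain the groups overlapped (3.85 and 2.81 against 2.90 and 2.89).

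The sums of 10 fibroblast markers were 734 and 491 in the Cre-positive arrays, against 449 and 412 in the Cre-negative arrays. They rested mostly on Vim, which other cell types also express and which was higher in both Cre-positive arrays by 0.66 on average, and on Pdgfrb (7.69 and 5.82 against 6.90 and 6.44). Thy1, a dim marker that T cells also express, was higher in both Cre-positive arrays (4.21 and 4.29 against 3.87 and 3.86). Col3a1 and Pdgfra differed by -0.093 and -0.091, Col1a1 by 0.021, and Col1a2, Dcn, Lum and Acta2 were at or below the filter. The epithelial sum over 12 markers was 291637 and 260270 in the Cre-positive arrays, against 237622 and 244837 in the Cre-negative arrays. The neutrophil, macrophage, B and plasma cell, fibroblast and epithelial sums were, like Pim1, highest in Cre-positive array 1. A sum follows its brightest genes. Relative to the Cre-negative mean, the median gene of these lists stood in Cre-positive array 1 at -0.028, 0.035, -0.027, -0.035 and 0.25 in turn. The part of any of these markers in the Pim1 and Socs3 values was not tested.

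Pim3, a close relative of Pim1, measured 9.29 and 9.71 in the Cre-positive arrays, against 10.03 and 9.43 in the Cre-negative arrays, by its brightest probe set. The groups overlapped (difference -0.23, 95% confidence interval -1.08 to 0.62, limma adjusted p = 0.739). Its second bright probe set (1451069_at) put the 4 arrays in the same order, at 8.34 and 8.79 against 9.05 and 8.43. The remaining, dim probe set (1438956_x_at) was lower in both Cre-positive arrays, at 3.60 and 3.45 against 4.03 and 3.82, a difference of -0.40 (limma adjusted p = 0.373) that was -0.18 on the log2(intensity + 16) scale, which shrinks differences of dim probe sets.

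Counted by probe set, 22 of the 29 lay above the filter and 7 did not. None of the 22 passed the threshold over 26999 probe sets, where limma called 0% in either direction. At an unadjusted p under 0.05, 4 were lower, the 3 of Socs3 and the dim one of Pim3, against 8.44% of all probe sets, and 0 were higher, against 3.37%. The groups were separate and lower in 6 (all of Socs3 and Socs5 and the dim one of Pim3), against 35.5% of all probe sets, and separate and higher in 2 (Pim1 and the dim 1438470_at of Socs2), against 13.8%. Every probe set above the filter had a lower mean in the Cre-positive group for Socs3 (3 of 3), Socs5 (2 of 2), Socs6 (3 of 3) and Pim3 (3 of 3). Every one had a higher mean for Socs7 (2 of 2), Cish (1 of 1) and Pim1 (1 of 1). Socs2 and Socs4 had probe sets in both directions. In all, 14 of the 22 had a lower and 8 a higher mean, against 61.8% and 38.2% of all probe sets tested.

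**Figure D3:**
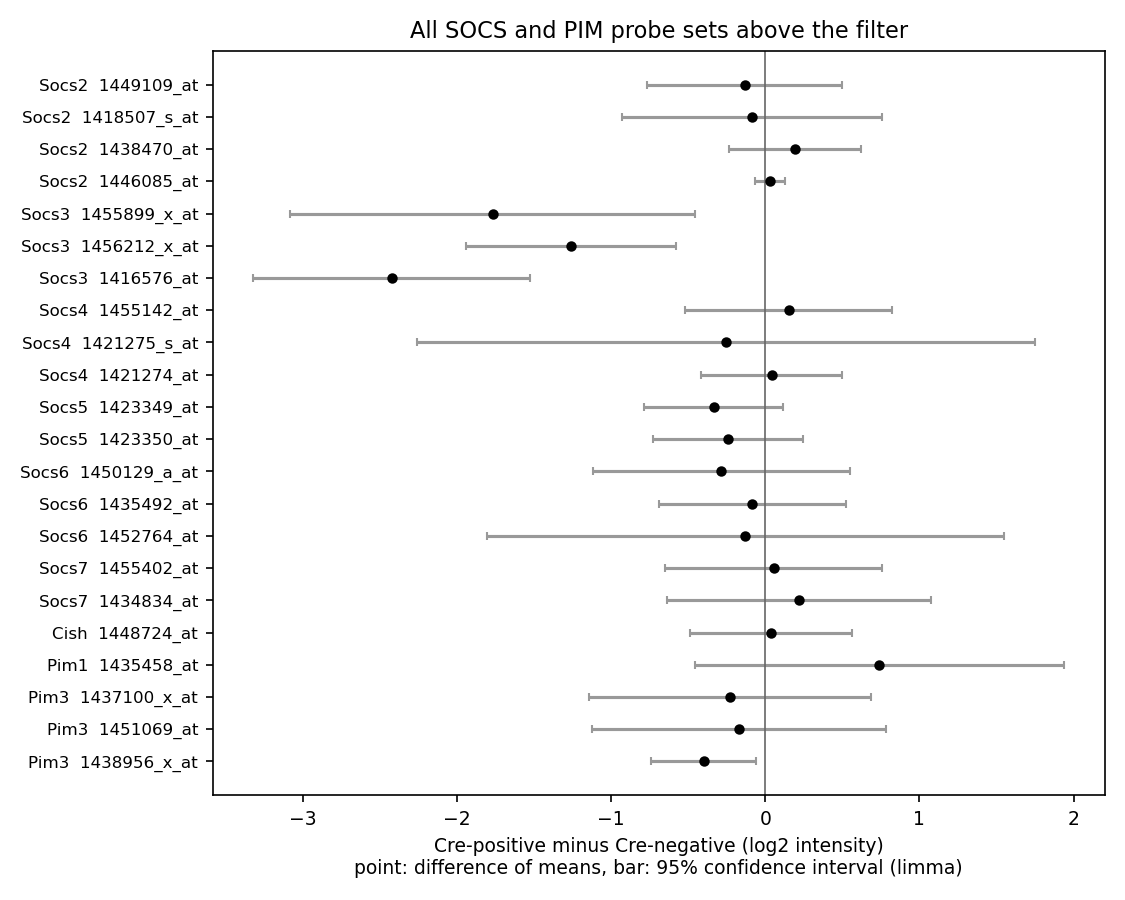
Cre-positive minus Cre-negative difference (log2 intensity, horizontal axis) of the 22 SOCS and PIM probe sets above the filter, with 95% confidence intervals from limma. The 3 intervals of Socs3 lie below 0, as does that of the dim 1438956_x_at of Pim3, and the intervals of the others span 0.

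The genes around these members in the pathway were read from lists chosen by function. Their counts of higher and lower genes stand beside 38.5% higher and 61.5% lower over all genes tested. Among 16 other negative regulators of JAK-STAT signalling, 9 stood higher and 7 lower in the Cre-positive arrays on average (median difference 0.078). The smallest unadjusted p belonged to Ptprc, which encodes the leukocyte phosphatase CD45, at 8.31 and 8.24 in the Cre-positive arrays, against 7.19 and 7.40 in the Cre-negative arrays (limma adjusted p = 0.244). Next came Usp18, an interferon-induced brake on the interferon receptor, at 10.31 and 8.32 against 8.26 and 7.80, again with Cre-positive array 1 far above the rest. Of 17 genes of the SOCS box ubiquitin ligase and other SOCS box proteins, 13 were lower and 4 higher (median -0.12). Cul5, the cullin that SOCS boxes recruit, measured 6.70 and 6.26 in the Cre-positive arrays, against 7.11 and 7.58 in the Cre-negative arrays, and its difference of -0.87 missed the threshold (limma adjusted p = 0.432). Cul2, a related cullin, differed by -0.36 (limma adjusted p = 0.479).

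Upstream, 14 cytokine receptor chains had a median difference of -0.048, with 5 higher and 9 lower, and 0 at an unadjusted p under 0.05. Another 6 chains, among them Il6ra and Osmr, were at or below the filter. Of 9 JAK and STAT genes, 6 were higher and 3 lower (median 0.096), and those with the smallest unadjusted p were Stat3 and Jak1 (0.31, limma adjusted p = 0.442). Of 20 genes in the list of PIM partners and substrates, 8 were higher and 12 lower (median -0.066). The transcription factor gene Foxo3 stood at 0.54 (limma adjusted p = 0.450) and the kinase gene Map3k5 at 0.38. That list also held the PIM kinase gene Pim2, which is not among the 10 genes. Pim2 was dim, at 3.89 and 3.91 in the Cre-positive arrays, against 4.17 and 3.79 in the Cre-negative arrays.

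Targets of the STATs that induce SOCS genes were read in the same way. Of 26 other STAT3 target genes, Stat3 itself among them, 19 were lower and 7 higher (median -0.14), and 10 were lower and 1 higher at an unadjusted p under 0.05, against 8.51% and 2.54% of all genes. The lowest unadjusted p were those of Reg3b, an antibacterial lectin, at 11.07 and 12.03 in the Cre-positive arrays, against 14.20 and 14.55 in the Cre-negative arrays (limma adjusted p = 0.244), and of Pla2g2a, a secreted phospholipase. This list was drawn up with earlier results of these arrays known and holds genes that were already seen to be low in them, so its counts are no independent evidence of direction. Of 7 STAT5 target genes, 5 were higher and 2 lower (median 0.13), with Ccnd2 at 0.67 and Ccnd3 at -0.26, both D-type cyclins. No gene of any of these lists passed the limma threshold over all genes.

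**Figure D4:**
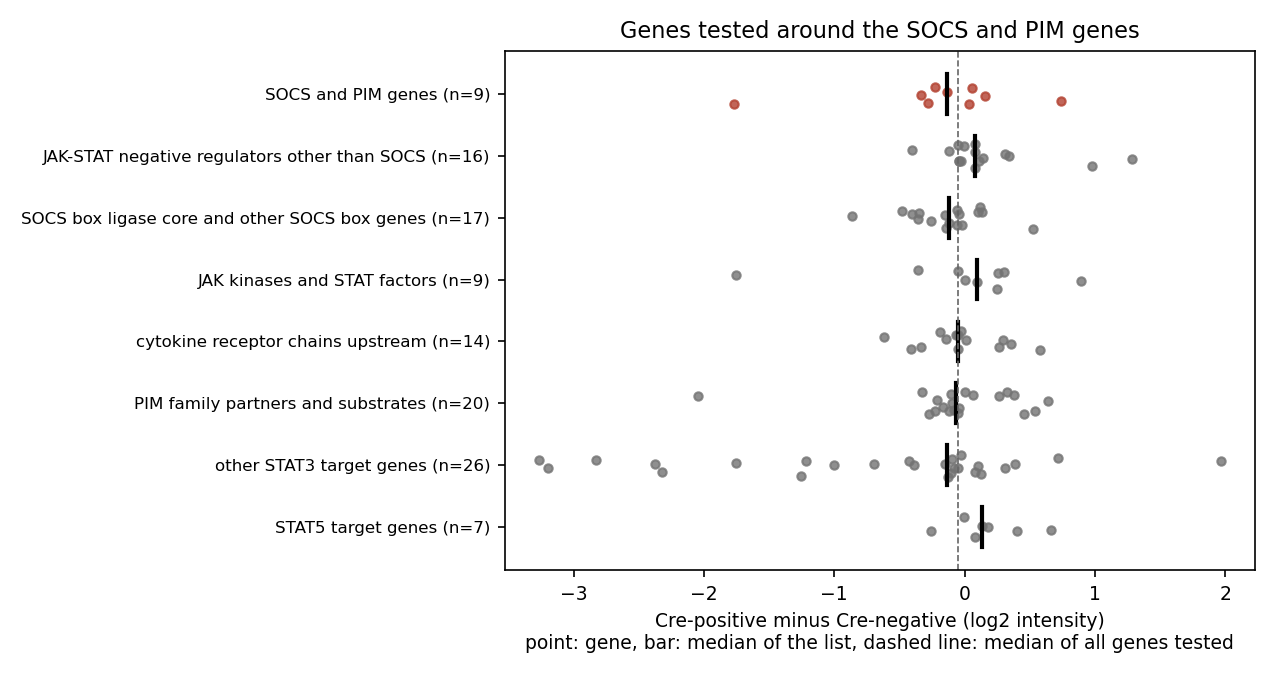
Cre-positive minus Cre-negative differences (log2 intensity, horizontal axis) of the 9 SOCS and PIM genes tested (red) and of 7 lists of related genes (grey), 1 point per gene, with the median of each list as a bar and the median of all genes (-0.053) as a dashed line. The SOCS and PIM median (-0.13) lies close to the dashed line, with Socs3 (-1.77) and Pim1 (0.74) at the ends.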

How the data were processed

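The authors processed the arrays with GCRMA (GC-RMA), per the file headers and the submitters' processing notes, which corrects background by probe GC content, equalises array distributions and gives 1 intensity per probe set. The deposited intensity values were on a linear scale, and log2 was taken here. A second deposited table held the same intensity values rounded, log2 values relative to the Cre-negative mean (equal to those computed here to within 0.000501), and a fold (ratio) and p-value by the authors. In the authors' deposited table all 29 member probe sets had the direction found here.

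Probe sets were named through the platform annotation, with symbols updated by gene ID. For each gene the probe set with the highest mean was used, and genes not above the 40th percentile of probe-set means (log2 2.81, intensity 6.99) were left out. The test was limma's moderated test (version 3.58.1, R 4.3.3, intensity trend, two-sided, Benjamini-Hochberg over all 12659 genes, or over all 26999 probe sets). All adjusted p-values come from these fits. Residual degrees of freedom were 2, with 1.58 more from the variance prior. The smallest two-sided p of an exact permutation test with 2 arrays a group is 0.333. The number of arrays limits the precision. The labels call the arrays biological replicates. The code was tested on simulated data. Other filters, scalings, variance models, probe set summaries, a block and leaving out each array were alternatives.

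Members and lists were chosen with earlier results of these data known. The result of 1 list is not reported here. Named by rule were all members, Stat3, up to 2 genes of smallest unadjusted p per list and the 5 genes nearest to Socs3. Some lists had fewer such genes named than the rule allows, among them the epithelial and endothelial markers and the cytokine receptor chains. Further marker genes named for the cell types, and genes named as at or below the filter, were added outside that rule after their values were seen. So were Bcl3 and Pim2.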

Additional observations from a re-analysis of the deposited data

How the results depend on the processing

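With 2 arrays per group, only large differences with little spread could pass. Under all 11 alternatives (10 for probe sets, which the summary over probe sets does not concern) 0 of the 9 genes, 0 of the member probe sets above the filter and 0 genes overall passed the limma threshold. At an unadjusted p under 0.05 the main counts were 322 genes higher and 1077 lower. Lower genes numbered 5319 with no filter, 259 with the filter at the 60th percentile, 610 with arrays centred on their medians and 583 without the intensity trend (the cause was not tested, beyond the number of genes tested in the first pair), and leaving out single arrays gave 114 to 1182 higher and 844 to 2188 lower. Socs3 kept its direction under all 11, from -2.28 without Cre-positive array 1 to -1.26 without Cre-positive array 2, with limma adjusted p between 0.0823 with no filter and 0.783. Socs5 ranged from -0.38 to -0.29, Pim1 from 0.27 to 1.21 and Socs6 from -0.53 to -0.036. The small differences of other genes changed sign when single arrays were left out: Cish ranged from -0.048 to 0.12, Pim3 from -0.53 to 0.075, Socs2 from -0.35 to 0.086, Socs4 from -0.047 to 0.36 and Socs7 from -0.20 to 0.31. So did further probe sets, namely 1451069_at of Pim3 (-0.48 to 0.14), 1418507_s_at (-0.35 to 0.17) and 1446085_at (-0.0012 to 0.061) of Socs2, 1421274_at (-0.11 to 0.19) and 1421275_s_at (-0.95 to 0.44) of Socs4, 1435492_at (-0.27 to 0.11) and 1452764_at (-0.64 to 0.39) of Socs6 and 1434834_at of Socs7 (-0.0041 to 0.44). On the log2(intensity + 16) scale, which shrinks dim differences, 1416576_at of Socs3 stood at -1.25 in place of -2.42, 1438956_x_at of Pim3 at -0.18 in place of -0.40 and 1438470_at of Socs2 at 0.12 in place of 0.19. With the mean of all probe sets above the filter, Socs2 stood at 0.00083 and Socs4 at -0.020, since their probe sets differ in direction. The labels number the mice 1 and 2 in each group without saying that a number marks a shared litter or day. Deviations of same-numbered arrays correlated at 0.423 over 12659 genes, and with 2 pairs this does not establish a pairing. With the replicate number as a block the differences were the same, Socs3 had a limma adjusted p of 0.466, and the counts at an unadjusted p under 0.05 became 446 higher and 900 lower.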
